A study of Mus musculus with 12 samples.

Results

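The genes of respiratory complexes III, IV and V and of cytochrome c were compared between bone marrow-derived macrophages with and without the nuclear receptor ERRα (encoded by Esrra), with and without lipopolysaccharide (LPS). Members were the non-control probes whose transcript accession belongs to a gene with a symbol beginning Uqcr, Cox4, Cox5, Cox6, Cox7, Cox8 or Atp5, or to Cyc1 or Cycs. Among RefSeq genes, 59 met this rule. Of these, 14 were pseudogenes with no probe and 45 were protein-coding genes, each with a probe. The 45 genes had 68 of the 55681 probes and were 45 of the 20887 named genes. Testing required a probe flagged well above background on each of the 3 arrays of some group, which kept 42 members among 13113 genes: 9 of complex III, cytochrome c, 15 of complex IV and 17 of complex V. Cox7b2, Cox8b and Cox8c, isoforms of restricted tissue distribution, were above background on no array.

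Complex III (the cytochrome bc1 complex) passes electrons from ubiquinol to cytochrome c, a small soluble haem protein, and complex IV (cytochrome c oxidase) passes them on to oxygen. Complexes III and IV pump protons across the inner mitochondrial membrane, and complex V (ATP synthase) uses the gradient to make ATP. ERRα is known as an activator of such genes, with the PGC-1 coactivators, and LPS-activated macrophages are known to shift from respiration towards glycolysis.

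The 12 arrays were 1-colour Agilent arrays in 4 groups of 3: ERRα-/- cells with LPS at 100 ng/mL, ERRα-/- cells with PBS, ERRα+/+ cells with LPS at 100 ng/mL and ERRα+/+ cells with PBS, the solvent. All cells came from male C57BL6 mice of 6 to 8 weeks and were differentiated for 5 to 7 days with M-CSF, a cytokine that drives macrophage differentiation. The duration of LPS, the deleted part of Esrra and whether replicates were separate animals or cultures are not given in the sources used here, so p-values measure the spread between these samples, which may be technical. Replicate 1 of each group lay on slide 1 and replicates 2 and 3 on slide 2.

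Levels are log2 signals scaled to the 75th percentile of the array (set to 0), in the order of replicates 1, 2 and 3, and differences are log2 differences ± standard error (SE) with n = 3 arrays per group. A gene was called at a limma p adjusted over all 13113 genes under 0.05. All 8 macrophage markers with a probe were above background on all 12 arrays, and 46.3% to 57.4% of spots per array were. Spots of the same probe varied by 12.3% (coefficient of variation) on the second PBS array of ERRα+/+ cells and by 8.19% on replicate 3 of that group, against 3.72% to 4.65% on the other 10 arrays. The first principal component of all genes held 76.1% of the variance and the second 10%. Esrra read 4.40, 3.92 and 3.83 in ERRα-/- LPS, 2.48, 0.25 and 0.15 in ERRα-/- PBS, 5.87, 6.25 and 6.36 in ERRα+/+ LPS and 4.54, 4.39 and 4.68 in ERRα+/+ PBS cells. Its averaged genotype difference was -2.84 ± 0.36 (adjusted p = 0.0038). Where in Esrra the probe lies relative to the deletion is not known here, so this may not check the genotype.

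Promoters of 4 members are shown, because Cycs and Atp5b had the largest differences with LPS in ERRα+/+ cells, Cox8a had the largest genotype difference under PBS, and Atp5g3 alone of the members with a promoter held the letters of an ERR response element. They are RefSeq sequences of build GRCm38.p6, 250 bases before to 50 after the start site, written 5′ to 3′ in the gene's direction, with matched letters in capitals.
Cycs (chr6:50566520-50566819, - strand): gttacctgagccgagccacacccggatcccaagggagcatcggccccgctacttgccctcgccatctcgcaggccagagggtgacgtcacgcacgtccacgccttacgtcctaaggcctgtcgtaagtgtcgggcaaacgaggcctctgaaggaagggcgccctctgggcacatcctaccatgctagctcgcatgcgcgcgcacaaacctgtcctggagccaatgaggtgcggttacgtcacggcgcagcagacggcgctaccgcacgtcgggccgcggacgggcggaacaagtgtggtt
Atp5b (chr10:128083057-128083356, + strand): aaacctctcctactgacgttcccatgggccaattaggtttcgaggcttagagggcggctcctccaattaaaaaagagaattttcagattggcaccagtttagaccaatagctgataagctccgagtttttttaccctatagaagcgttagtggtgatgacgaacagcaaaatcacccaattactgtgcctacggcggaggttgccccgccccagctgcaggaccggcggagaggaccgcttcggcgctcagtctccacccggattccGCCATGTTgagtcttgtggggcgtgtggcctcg
Atp5g3 (chr2:73911277-73911576, - strand): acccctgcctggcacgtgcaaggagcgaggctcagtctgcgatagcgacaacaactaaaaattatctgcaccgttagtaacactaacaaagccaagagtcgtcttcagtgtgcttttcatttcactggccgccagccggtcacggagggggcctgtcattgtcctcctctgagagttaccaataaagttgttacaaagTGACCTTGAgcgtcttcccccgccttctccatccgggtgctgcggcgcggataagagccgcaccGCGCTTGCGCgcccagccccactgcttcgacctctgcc
Cox8a (chr19:7217567-7217866, - strand): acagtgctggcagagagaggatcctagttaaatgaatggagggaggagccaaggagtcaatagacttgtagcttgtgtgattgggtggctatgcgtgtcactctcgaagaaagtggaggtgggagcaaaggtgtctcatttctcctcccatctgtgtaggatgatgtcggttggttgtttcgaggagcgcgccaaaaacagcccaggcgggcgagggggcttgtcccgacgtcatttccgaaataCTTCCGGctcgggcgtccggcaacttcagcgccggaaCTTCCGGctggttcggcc
The letters searched on both strands were TNAAGGTCA (ERR response element), GCGCA followed by any base and GCGC (NRF1), CCGGAAG (ETS factors, GABP among them) and AANATGGC (YY1). In the Atp5g3 window the ERR element lay on the opposite strand, at -52 to -44 from the start site, and a match to the NRF1 letters lay from 12 to 21 bases after it. The capitals of Atp5b mark YY1 letters and those of Cox8a mark 2 matches to the ETS letters. The Cycs window held none of these letters, which says only that they are not in this window.

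The promoter table held 34 of the 45 members. The ERR letters were in 1 of the 34 (2.94%), against 1.43% of all 27025 genes in the table. NRF1 letters were in 8 members (23.5%), against 5.19% of all genes. ETS letters were in 11 members (32.4%), against 9.93%, and YY1 letters in 5 (14.7%), against 6.96%. The members are all protein-coding. Among the 17492 protein-coding genes of the table the shares were 1.19% for ERR, 7.17% for NRF1, 12.9% for ETS and 7.46% for YY1 letters. None of these shares was tested, and a match is not evidence of binding.

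With LPS, cytochrome c was the member that differed most from PBS in both genotypes. In ERRα-/- cells 6 of 42 members rose and 0 fell (14.3%), where 50.4% of all genes were called (25.1% higher and 25.3% lower). In ERRα+/+ cells 6 rose and 1 fell (16.7%), where 45.9% of all genes were called (22.2% higher and 23.7% lower). The members called were Cycs, Atp5b and Cox5b in both genotypes, Atp5md, Cox7a2 and Cox6b2 in ERRα-/- cells, and Atp5o, Uqcrq, Cox4i2 and Atp5g2 in ERRα+/+ cells. A call in 1 genotype alone does not show a difference between the genotypes, and the interaction called none of them. In these cultures, fewer cells of a type and less RNA per cell cannot be told apart. Probes of Uqcrh, Atp5k, Atp5l, Atp5pb, Cox6c, Cox5b, Atp5c1 and Cox7c may not separate the gene from its pseudogene copies. Only pseudogenes whose symbols met the member rule were counted, so copies under other names, any of Cycs included, were not sought.

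**Figure D1:**
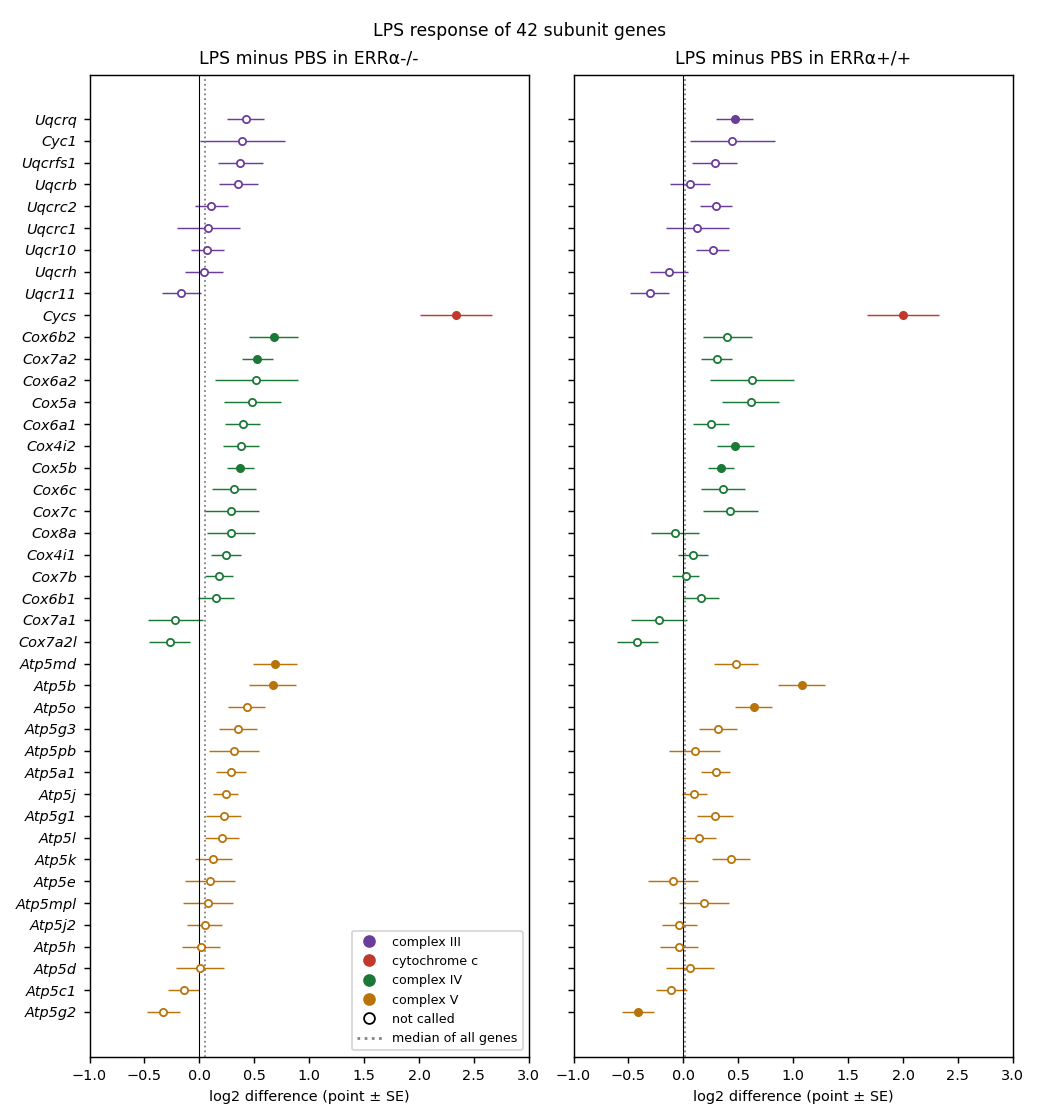
LPS minus PBS (log2 difference, horizontal axis, ± SE) of the 42 tested members in ERRα-/- (left) and ERRα+/+ (right) cells, coloured by complex. Filled points were called by limma, open points were not, and the dotted line is the median of all genes. Cycs, at 2.34 and 2.00, stands far to the right of the other members.

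The median difference of the 42 members with LPS was 0.266 in ERRα-/- cells (all genes 0.0516) and 0.26 in ERRα+/+ cells (all genes 0.0174). The difference was above 0 for 37 members in ERRα-/- and for 32 in ERRα+/+ cells, by 1 probe a gene. Kept probes of a gene differed in sign for Atp5h in both genotypes and for Cox8a and Uqcr10 in ERRα+/+ cells. These directions depended on the array scaling. Quantile normalization shifted the median of all genes by -0.203 in ERRα-/- and -0.159 in ERRα+/+ cells, and the median of the members then became -0.232 in ERRα-/- and -0.182 in ERRα+/+ cells. Relative to all genes, the members' median lay 0.214 above in ERRα-/- and 0.243 above in ERRα+/+ cells with the 75th percentile, but differed by -0.081 in ERRα-/- and -0.04 in ERRα+/+ cells with quantile normalization. Quantile normalization called 2 higher and 12 lower members in ERRα-/- and 3 higher and 10 lower in ERRα+/+ cells, where 50.1% of all genes were called in ERRα-/- and 46.7% in ERRα+/+ cells. Cycs was called higher under both scalings in both genotypes, as were Cox6b2 in ERRα-/- cells and Atp5b and Cox4i2 in ERRα+/+ cells. Atp5g2 was called lower under both scalings in ERRα+/+ cells.

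**Figure D2:**
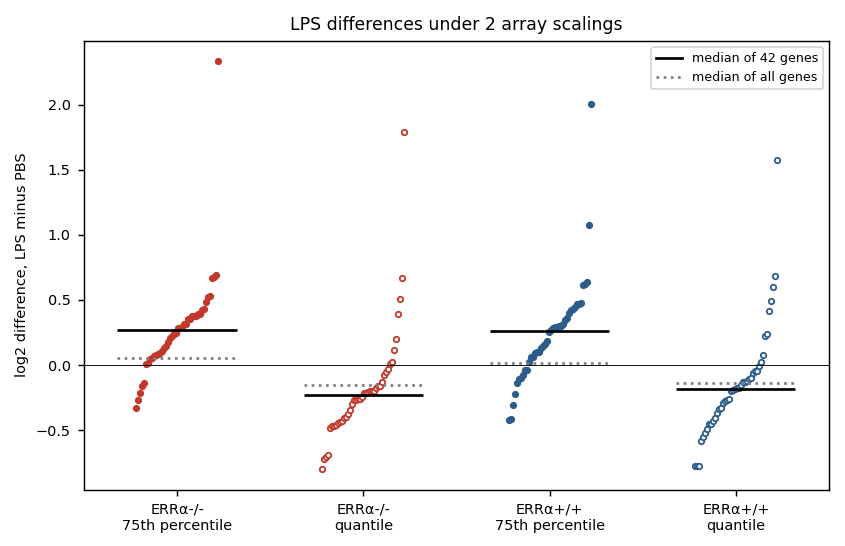
LPS minus PBS (log2 difference, vertical axis) of each of the 42 members, sorted within each column, in ERRα-/- and ERRα+/+ cells under the 75th percentile (filled) and quantile (open) scalings. The solid bars are the members' medians (0.266, -0.232, 0.26 and -0.182 from left to right) and the dotted bars the medians of all genes. The lone top point of each column is Cycs.

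The groups also separated for members that missed the threshold. All 3 LPS arrays lay above all 3 PBS arrays for 18 members in ERRα-/- cells (42.9%), where 30% of all genes did so, and for 13 members in ERRα+/+ cells (31%), where 26.6% did. All LPS arrays lay below all PBS arrays for 1 member in each genotype (2.38%), where 29.6% of all genes did so in ERRα-/- and 27.3% in ERRα+/+ cells. That member was Atp5g2. With the replicate number as a block, 18 members rose and 0 fell in ERRα-/- cells (63.7% of all genes called) and 15 rose and 3 fell in ERRα+/+ cells (60.5% of all genes called). The block called 13 members in both genotypes and ended none of the calls made without it.

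Cytochrome c, encoded by Cycs, carries electrons from complex III to complex IV and, once released to the cytosol, triggers the apoptosome. Cycs read 6.56, 7.48 and 7.50 in ERRα-/- LPS, against 5.00, 4.77 and 4.77 in ERRα-/- PBS cells. In ERRα+/+ cells it read 6.13, 6.97 and 7.30 with LPS, against 5.12, 4.75 and 4.53 with PBS. Every LPS array lay more than 1 log2 unit above the PBS arrays of its genotype, and in each genotype replicate 1 was the lowest LPS array and the highest PBS array. The difference was 2.34 ± 0.33 in ERRα-/- cells (5.05-fold, adjusted p = 0.000302) and 2.00 ± 0.33 in ERRα+/+ cells (4.01-fold, adjusted p = 0.000807). A further probe above background on all arrays differed by 2.16 in ERRα-/- and 1.72 in ERRα+/+ cells, and the other probe was above background on no array. The call remained in both genotypes without each single array. Without ERRα+/+ PBS replicates 2 and 3 together, an alternative chosen after seeing the data, the ERRα+/+ difference was 1.68 (adjusted p = 0.0486).

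**Figure D3:**
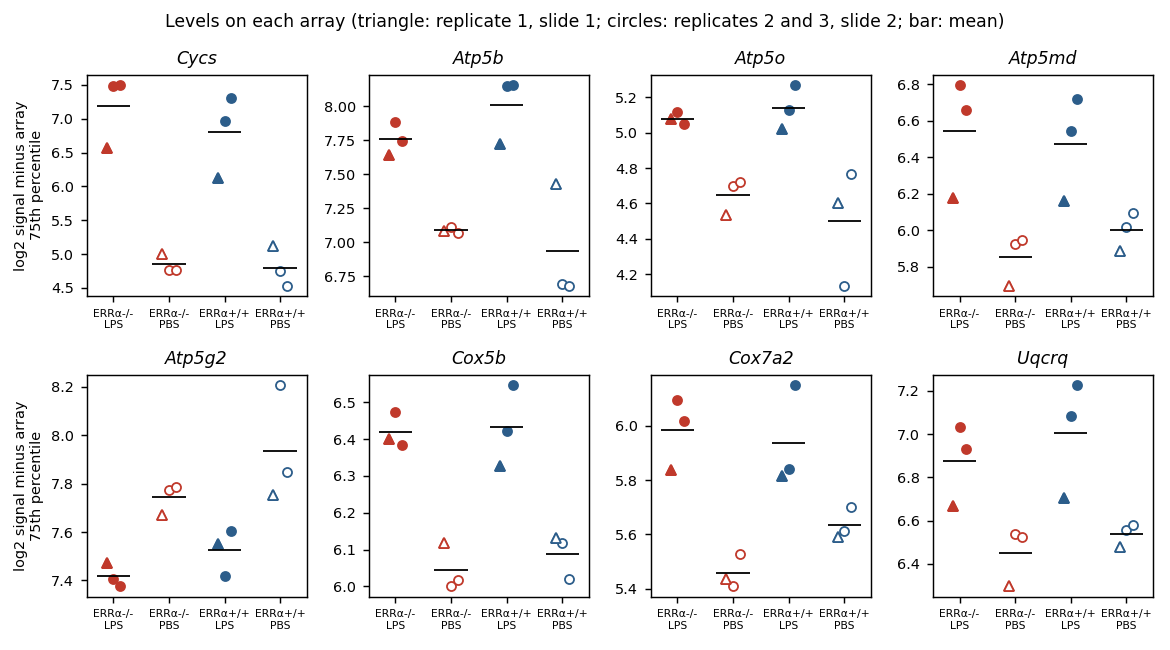
Level of 8 called members on each array (log2 signal minus the array's 75th percentile, vertical axes not starting at 0), with ERRα-/- in red and ERRα+/+ in blue, LPS filled and PBS open. Triangles are replicate 1 (slide 1), circles replicates 2 and 3 (slide 2), and bars group means. The LPS and PBS arrays of a genotype do not overlap in any panel, and Atp5g2 alone is lower with LPS.

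Complex V has a catalytic head of subunits α (Atp5a1) and β (Atp5b) and a central stalk of γ (Atp5c1), δ (Atp5d) and ε (Atp5e). Complex V also has a peripheral stalk, which includes OSCP (Atp5o), and a membrane rotor of subunit c. Of its 17 genes tested, 2 rose and 0 fell with LPS in ERRα-/- and 2 rose and 1 fell in ERRα+/+ cells, with medians of 0.208 in ERRα-/- and 0.143 in ERRα+/+ cells. Under quantile normalization these medians were -0.347 in ERRα-/- and -0.289 in ERRα+/+ cells. Atp5b, the catalytic β subunit, read 7.64, 7.88 and 7.74 in ERRα-/- LPS, against 7.09, 7.11 and 7.07 in ERRα-/- PBS cells. It read 7.72, 8.15 and 8.16 in ERRα+/+ LPS, against 7.43, 6.69 and 6.68 in ERRα+/+ PBS cells. The LPS arrays were the higher ones in both genotypes, and the lowest PBS arrays, ERRα+/+ replicates 2 and 3, were those with the more variable spots. The rise was 0.67 ± 0.21 in ERRα-/- (adjusted p = 0.0232) and 1.08 ± 0.21 in ERRα+/+ cells (adjusted p = 0.0023). Under quantile normalization it was 0.20 in ERRα-/- cells, where the call ended (adjusted p = 0.427), and 0.68 in ERRα+/+ cells (adjusted p = 0.0161). Without ERRα+/+ PBS replicates 2 and 3 together the ERRα+/+ difference was 0.581 and not called (adjusted p = 0.107), while each single array could be left out without ending it. In ERRα-/- cells the call was lost when any of 5 of the 6 ERRα-/- arrays was left out, LPS replicate 1 being the exception (adjusted p up to 0.0799).

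The stalk subunit OSCP (Atp5o) read 5.08, 5.12 and 5.05 in ERRα-/- LPS, against 4.53, 4.70 and 4.72 in ERRα-/- PBS cells, and 5.02, 5.13 and 5.27 in ERRα+/+ LPS, against 4.60, 4.13 and 4.76 in ERRα+/+ PBS cells. The arrays did not overlap in either genotype, with a difference of 0.64 ± 0.17 in ERRα+/+ (adjusted p = 0.0112) and 0.43 ± 0.17 in ERRα-/- cells, where it was not called (adjusted p = 0.0577, and 0.0354 with the replicate block). The ERRα+/+ call ended without ERRα+/+ LPS replicate 3 (adjusted p = 0.0505) and under quantile normalization, which gave -0.07 in ERRα-/- and 0.22 in ERRα+/+ cells (adjusted p = 0.327). Atp5md, a small membrane subunit tied to the dimeric form of the enzyme, read 6.18, 6.80 and 6.66 in ERRα-/- LPS, against 5.69, 5.92 and 5.95 in ERRα-/- PBS cells. In ERRα+/+ cells it read 6.16, 6.55 and 6.72 with LPS, against 5.89, 6.02 and 6.09 with PBS. It rose by 0.69 ± 0.20 in ERRα-/- cells (adjusted p = 0.015) and differed by 0.48 ± 0.20 in ERRα+/+ cells (adjusted p = 0.0743, and 0.0092 with the replicate block). Quantile normalization ended the call, with 0.12 in ERRα-/- (adjusted p = 0.474) and -0.007 in ERRα+/+ cells. The ERRα-/- call ended without ERRα-/- LPS replicate 2 (adjusted p = 0.0673) or replicate 3 (0.0555).

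The membrane ring of ATP synthase is built from subunit c, which 3 genes encode with the same mature protein. Atp5g2 read 7.47, 7.40 and 7.38 in ERRα-/- LPS, against 7.67, 7.77 and 7.79 in ERRα-/- PBS cells, and 7.55, 7.42 and 7.61 in ERRα+/+ LPS, against 7.75, 8.21 and 7.85 in ERRα+/+ PBS cells. It fell by 0.41 ± 0.15 in ERRα+/+ cells (adjusted p = 0.0408, ended without any of 9 single arrays, adjusted p up to 0.147) and differed by -0.33 ± 0.15 in ERRα-/- cells (adjusted p = 0.0869), with its other probe at -0.39 in ERRα+/+ and -0.37 in ERRα-/- cells. The differences of Atp5g1 were 0.22 in ERRα-/- and 0.29 in ERRα+/+ cells, and those of Atp5g3 were 0.35 in ERRα-/- and 0.31 in ERRα+/+ cells. Neither was called, and under quantile normalization both had the same sign as Atp5g2, which was then at -0.80 in ERRα-/- (adjusted p = 0.00717) and -0.78 in ERRα+/+ cells (adjusted p = 0.00916). Of the other 11 genes of complex V, none was called in either genotype.

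Complex IV had 15 tested genes, of which 3 rose in ERRα-/- and 2 in ERRα+/+ cells with LPS, and 0 fell. The median was 0.319 in ERRα-/- and 0.302 in ERRα+/+ cells, and -0.196 in ERRα-/- and -0.12 in ERRα+/+ cells under quantile normalization. Cox5b, a matrix-side subunit that binds zinc, read 6.40, 6.47 and 6.38 in ERRα-/- LPS, against 6.12, 6.00 and 6.02 in ERRα-/- PBS cells, and 6.33, 6.42 and 6.55 in ERRα+/+ LPS, against 6.13, 6.12 and 6.02 in ERRα+/+ PBS cells. It rose by 0.37 ± 0.12 in ERRα-/- (adjusted p = 0.0262) and 0.34 ± 0.12 in ERRα+/+ cells (adjusted p = 0.0411), but was at -0.20 in ERRα-/- and -0.13 in ERRα+/+ cells under quantile normalization. The ERRα-/- call ended without any of the 4 ERRα-/- arrays of slide 2 and the ERRα+/+ call without any of the 8 arrays of slide 2 (adjusted p up to 0.157). Its partner Cox5a, another core-binding subunit, differed by 0.48 ± 0.26 in ERRα-/- and 0.61 ± 0.26 in ERRα+/+ cells, not called in either. With the replicate block it was called in both (adjusted p = 0.0021 in ERRα-/- and 0.0007 in ERRα+/+ cells), as it was with the slide as a block and within slide 2.

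Subunit VIIa has several forms. Cox7a2, the widely expressed form, read 5.84, 6.09 and 6.02 in ERRα-/- LPS, against 5.43, 5.41 and 5.53 in ERRα-/- PBS cells. In ERRα+/+ cells it read 5.82, 5.84 and 6.15 with LPS, against 5.59, 5.61 and 5.70 with PBS. The arrays did not overlap in either genotype, with a rise of 0.53 ± 0.14 in ERRα-/- cells (adjusted p = 0.01, -0.028 under quantile normalization) and a difference of 0.30 ± 0.14 in ERRα+/+ cells (adjusted p = 0.102). Cox7a2l, a related gene, differed by -0.27 ± 0.18 in ERRα-/- (adjusted p = 0.245) and -0.42 ± 0.18 in ERRα+/+ cells (adjusted p = 0.0865), not called in either. Quantile normalization called it lower in both, at -0.72 in ERRα-/- (adjusted p = 0.00413) and -0.78 in ERRα+/+ cells (adjusted p = 0.0029). With the replicate block Cox7a2l fell in ERRα+/+ cells (adjusted p = 0.009), and its 3 probes were all below 0 in both genotypes.

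The 4 isoforms known from restricted tissues (Cox4i2 from lung, Cox6a2 and Cox7a1 from heart and muscle, Cox6b2 from testis) were above background on all 12 arrays. Cox6b2 read -0.72, 0.0023 and -0.13 in ERRα-/- LPS, against -0.98, -0.93 and -0.95 in ERRα-/- PBS cells, and -0.83, -0.40 and -0.33 in ERRα+/+ LPS, against -1.24, -0.83 and -0.69 in ERRα+/+ PBS cells. It rose by 0.68 ± 0.22 in ERRα-/- cells (adjusted p = 0.0281). This call was lost when any of the 6 ERRα-/- arrays but LPS replicate 1 was left out (adjusted p up to 0.113). It remained under quantile normalization, at 0.67 (adjusted p = 0.0345). The hypoxia-linked isoform Cox4i2 read -0.66, -0.65 and -0.55 in ERRα-/- LPS, against -0.80, -1.07 and -1.13 in ERRα-/- PBS cells, and -0.55, -0.66 and -0.26 in ERRα+/+ LPS, against -0.73, -1.16 and -1.01 in ERRα+/+ PBS cells. It rose by 0.47 ± 0.17 in ERRα+/+ cells (adjusted p = 0.0405), a call that ended without any of 8 single arrays (adjusted p up to 0.165). The call remained under quantile normalization, at 0.49 (adjusted p = 0.0328). Cox6a2 and Cox7a1 were not called. Without these 4 genes, 5 of 38 members rose and 0 fell in ERRα-/- and 5 rose and 1 fell in ERRα+/+ cells.

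Complex III had 9 tested genes, with medians of 0.109 in ERRα-/- and 0.268 in ERRα+/+ cells, and -0.209 in ERRα-/- and -0.191 in ERRα+/+ cells under quantile normalization. The 1 call was Uqcrq, the small subunit 8, which read 6.67, 7.03 and 6.93 in ERRα-/- LPS, against 6.30, 6.54 and 6.53 in ERRα-/- PBS cells, and 6.71, 7.08 and 7.23 in ERRα+/+ LPS, against 6.48, 6.56 and 6.58 in ERRα+/+ PBS cells. It rose by 0.47 ± 0.17 in ERRα+/+ cells (adjusted p = 0.0434, ended without any of 9 single arrays, adjusted p up to 0.172) and differed by 0.42 ± 0.17 in ERRα-/- cells (adjusted p = 0.0578, and 0.0092 with the replicate block). Quantile normalization ended the call, with -0.13 in ERRα-/- and 0.03 in ERRα+/+ cells (adjusted p = 0.872). The core proteins Uqcrc1 and Uqcrc2, the Rieske protein Uqcrfs1 and cytochrome c1 (Cyc1) were not called in either genotype. With the replicate block, Cyc1 was called higher with LPS, with differences of 0.39 in ERRα-/- (adjusted p = 0.0225) and 0.45 in ERRα+/+ cells (adjusted p = 0.0137).

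The LPS difference varied with the replicate. The median over the 42 members was 0.246 in replicate 1, 0.303 in replicate 2 and 0.203 in replicate 3 of ERRα-/- cells, and 0.106, 0.243 and 0.296 for replicates 1, 2 and 3 of ERRα+/+ cells. Within slide 2, 18 members rose and 2 fell in ERRα-/- cells (73% of all genes called) and 21 rose and 4 fell in ERRα+/+ cells (71.4% of all genes called). Slide 1 holds 1 array per group and allows no test.

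For the genotype, no difference of a subunit gene passed the test. Of 42 members, 0 were called in ERRα-/- against ERRα+/+ cells under LPS (0.13% of all genes called), under PBS (0.427%) or averaged over both (1.37%), and the interaction called 0 members (0% of all genes). At an unadjusted p under 0.05 the members numbered 0 under LPS (6.23% of all genes), 1 under PBS (Cox8a, 6.57%), 1 averaged (Atp5a1, 9.4%) and 0 for the interaction (2.23%). The median genotype difference was -0.00274 under LPS and -0.0355 under PBS (all genes -0.00666 and -0.0226), and every averaged difference was within 0.368 of 0. With the replicate block the count was 0 under LPS (1.01% of all genes called), under PBS (1.47%), averaged (3.8%) and for the interaction (0%). The averaged difference was below 0 for 8 of the 9 genes of complex III (median -0.0925), 8 of the 15 of complex IV (median -0.0166), 6 of the 17 of complex V (median 0.0168) and 6987 of the 13113 genes in all. These directions depended on the array scaling. Under quantile normalization 9, 11 and 15 genes of complexes III, IV and V were below 0 on average. That was 35 of the 42 members, against 7677 of all genes. Under LPS it was 38 members, against 7658 of all genes, and 0 members were called for genotype.

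**Figure D4:**
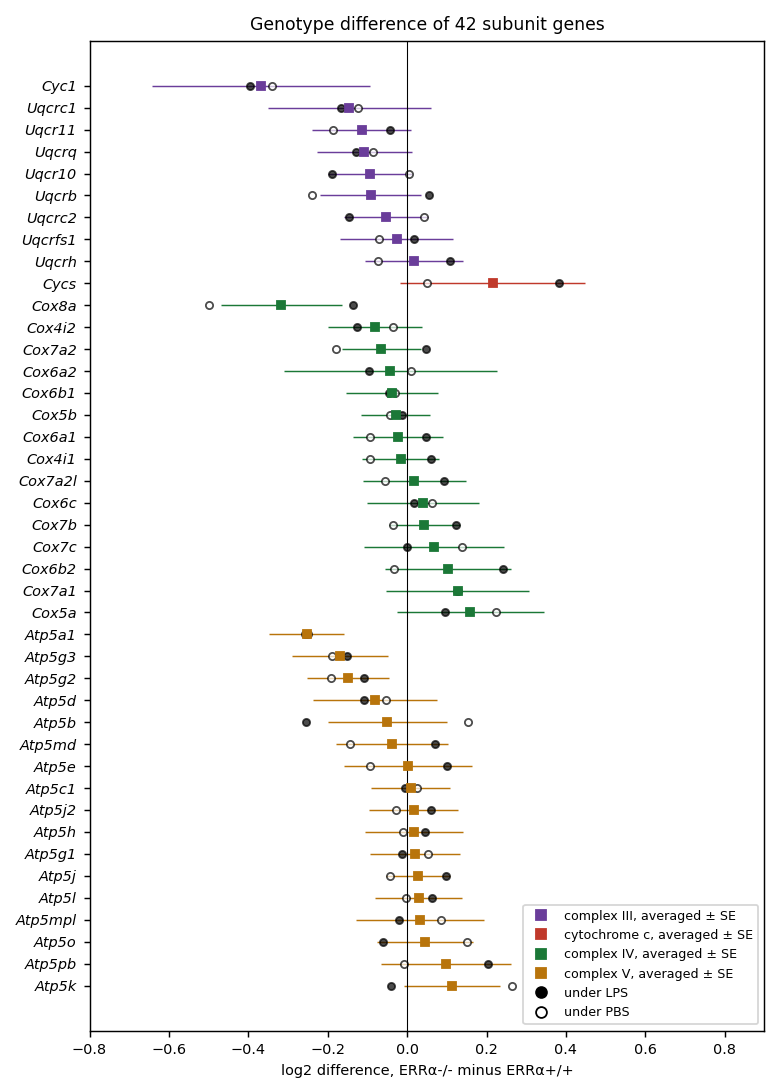
ERRα-/- minus ERRα+/+ (log2 difference, horizontal axis) of the 42 tested members. Squares are the average over both treatments ± SE, coloured by complex, black circles are under LPS and open circles under PBS. Cyc1 and Cox8a lie farthest to the left on average, at -0.37 and -0.32, and none was called.

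Cytochrome c1 (Cyc1), the haem subunit of complex III that hands electrons to cytochrome c, had the largest averaged difference of the members. It read 5.14, 4.47 and 4.03 in ERRα-/- LPS, against 5.33, 4.92 and 4.57 in ERRα+/+ LPS cells, and 4.84, 3.89 and 3.73 in ERRα-/- PBS, against 5.09, 4.29 and 4.11 in ERRα+/+ PBS cells. ERRα-/- was lower in 6 of 6 same-numbered pairs, but the replicates of a group spread wider than the genotypes, and the groups overlapped. The averaged difference was -0.37 ± 0.27 (n = 6 arrays per genotype, adjusted p = 0.82, and 0.063 with the replicate block). For the core protein Uqcrc1 it was -0.15 ± 0.20 (adjusted p = 0.938).

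Cox8a, a membrane subunit of complex IV, read 7.67, 7.91 and 7.83 in ERRα-/- LPS, against 7.69, 7.95 and 8.18 in ERRα+/+ LPS cells, and 7.39, 7.53 and 7.63 in ERRα-/- PBS, against 7.57, 8.42 and 8.05 in ERRα+/+ PBS cells. ERRα-/- was lower in 6 of 6 pairs, with the lowest ERRα+/+ PBS array, replicate 1, inside the ERRα-/- PBS range. The difference was -0.50 ± 0.22 under PBS (adjusted p = 0.702) and -0.32 ± 0.15 averaged (adjusted p = 0.568). Within slide 2 it was called, at -0.66 under PBS (adjusted p = 0.0468, 8.98% of all genes called) and -0.42 averaged (adjusted p = 0.0378, 19.2% of all genes called). The ERRα+/+ PBS arrays of slide 2, at 8.42 and 8.05, are those with the more variable spots. On slide 1 the same-numbered pair differed by -0.18 under PBS. Without single arrays the averaged difference of Cox8a ranged from -0.428 to -0.216. Over all 25 alternatives, which include leaving out these ERRα+/+ PBS arrays together, it ranged from -0.431 to -0.0956. The second probe of Cox8a differed by -0.34 under PBS. Cox8a lies on chromosome 19, as Esrra does, with 24 genes between them in the RefSeq table, 17 of them protein-coding. The part of this location in the difference was not tested.

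Atp5a1, the α subunit of ATP synthase, read 6.32, 6.59 and 6.39 in ERRα-/- LPS, against 6.54, 6.75 and 6.78 in ERRα+/+ LPS cells, and 6.06, 6.17 and 6.21 in ERRα-/- PBS, against 6.41, 6.32 and 6.46 in ERRα+/+ PBS cells. The PBS groups did not overlap, and ERRα-/- was lower in 6 of 6 pairs, with an averaged difference of -0.25 ± 0.10 (adjusted p = 0.372). Atp5g3, whose promoter holds the ERR letters, differed by -0.17 ± 0.12 (adjusted p = 0.8), and was lower in ERRα-/- in 4 of 6 pairs. Higher in ERRα-/- cells on average were Cycs (0.22 ± 0.23, adjusted p = 0.915, with its other probe at -0.03) and Cox5a (0.16 ± 0.19, adjusted p = 0.93, higher in 6 of 6 pairs). The ERRα-/- and ERRα+/+ arrays did not overlap for 1 member under LPS (Atp5j, 0.10 higher) and 2 under PBS (Atp5a1 and Cox7a2, at -0.25 and -0.18). Of all genes, 4.49% lay higher without overlap in ERRα-/- cells under LPS and 8.36% lower under PBS.

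Within slide 2, which has 2 arrays per group, Atp5b differed between the genotypes in opposite directions by treatment. It was at -0.34 under LPS (adjusted p = 0.0359, 15.9% of all genes called) and at 0.40 under PBS (adjusted p = 0.0322), with an interaction of -0.74 (adjusted p = 0.0328, 3.47% of all genes called). On slide 1 the same-numbered pair differed by -0.08 under LPS and -0.34 under PBS. The ERRα+/+ PBS arrays of slide 2 are those with the more variable spots, and their part in this was not tested. Cox6a2 was called lower within slide 2 under LPS (-0.75, adjusted p = 0.0214), whereas the pair on slide 1 differed by 1.21.

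No marker of another cell type was called for genotype. The summed neutrophil marker signal (relative to the array's 75th percentile, linear scale) was 74.5 to 83.2 in ERRα-/- PBS and 112 to 142 in ERRα+/+ PBS cells, and 93.2 to 153 in ERRα-/- LPS and 86.2 to 168 in ERRα+/+ LPS cells. All 6 neutrophil markers tested had averaged genotype differences below 0, as did all 5 stromal and endothelial and all 3 erythroid and megakaryocyte markers tested, and none was called. Klf1, Xcr1, Ncr1, Fcer1a and Ms4a2 were above background on no array. All 8 macrophage markers had averaged genotype differences above 0. The summed macrophage marker signal was 1610 to 2010 in ERRα-/- LPS, 1120 to 1580 in ERRα-/- PBS, 1540 to 1830 in ERRα+/+ LPS and 821 to 1430 in ERRα+/+ PBS cells. The part of cell composition in the differences above was not tested.

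Of 27 tested genes listed as assembly factors of complex IV, 5 rose and 7 fell in ERRα-/- and 7 rose and 7 fell in ERRα+/+ cells. Their medians were -0.12 in ERRα-/- and 0.0259 in ERRα+/+ cells. The list includes Hccs, the haem lyase gene of cytochromes c and c1, which was among the rises in ERRα+/+ cells. Of all genes, 50.4% were called in ERRα-/- and 45.9% in ERRα+/+ cells. Sco1, a copper chaperone, rose by 2.45 ± 0.50 in ERRα-/- (adjusted p = 0.00235) and 1.57 ± 0.50 in ERRα+/+ cells (adjusted p = 0.0246). Cox18, which inserts subunit 2 into the membrane, rose by 1.93 ± 0.28 in ERRα-/- and 2.12 ± 0.28 in ERRα+/+ cells, and Coa5 by 1.56 ± 0.36 in ERRα-/- and 1.15 ± 0.36 in ERRα+/+ cells. Cox10, which makes haem O, rose by 1.55 ± 0.53 in ERRα+/+ cells. Falls were those of Coa6, a copper-handling factor (-1.63 ± 0.28 in ERRα-/- and -1.11 ± 0.28 in ERRα+/+ cells), and Cmc2 (-1.24 ± 0.18 in ERRα-/- and -1.27 ± 0.18 in ERRα+/+ cells). In ERRα+/+ cells the calls of Sco1 and Cox10 ended without any of 5 single ERRα+/+ arrays (Cox10 at 0.862 without PBS replicate 2) and that of Coa5 without any of 4, with adjusted p up to 0.103.

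**Figure D5:**
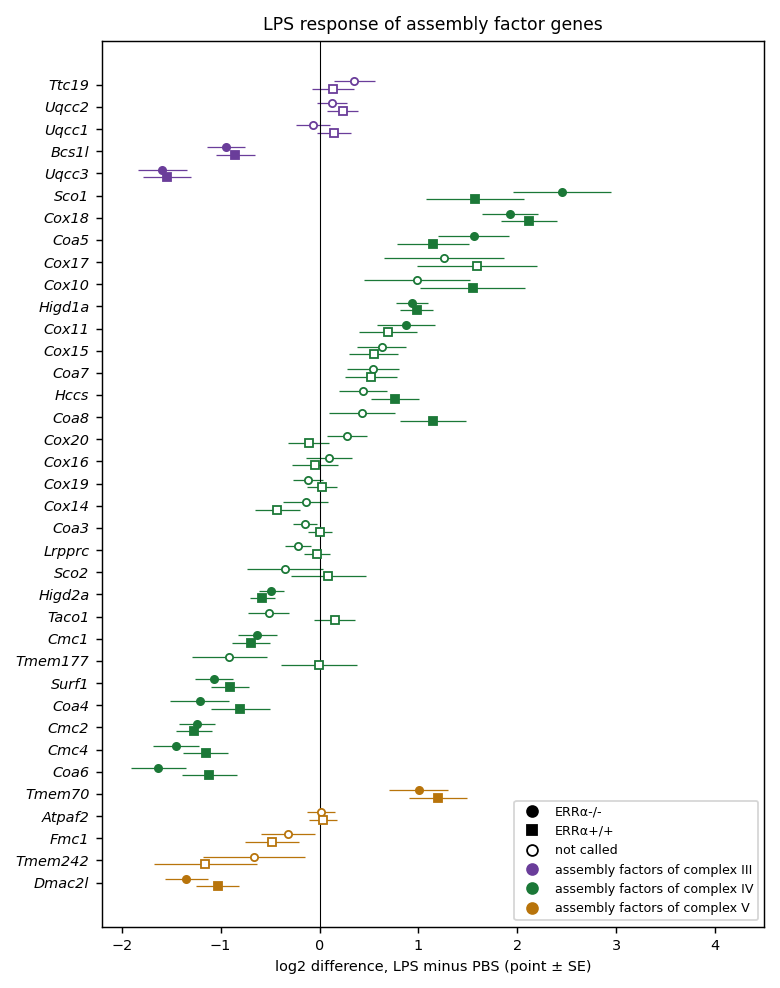
LPS minus PBS (log2 difference, horizontal axis, ± SE) of the tested genes listed as assembly factors of complexes III, IV and V (Hccs included). Circles are ERRα-/- and squares ERRα+/+ cells, filled where called. Sco1 and Cox18 lie at the high end and Coa6, Cmc2 and Uqcc3 at the low end in both genotypes.

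Of 5 assembly factors of complex III, 0 rose and 2 fell in each genotype. The share of all genes called with LPS was 50.4% in ERRα-/- and 45.9% in ERRα+/+ cells. Uqcc3, which helps to form the cytochrome b core, fell by 1.59 ± 0.25 in ERRα-/- and 1.54 ± 0.25 in ERRα+/+ cells (adjusted p = 0.000523 in ERRα-/- and 0.000694 in ERRα+/+ cells). Bcs1l, which inserts the Rieske protein, fell by 0.94 in ERRα-/- and 0.85 in ERRα+/+ cells. Of 5 assembly factors of complex V, Tmem70 rose (1.00 in ERRα-/- and 1.20 in ERRα+/+ cells) and Dmac2l fell (-1.35 in ERRα-/- and -1.03 in ERRα+/+ cells). The Tmem70 call in ERRα-/- cells ended without ERRα-/- PBS replicate 1, LPS replicate 2 or LPS replicate 3 (adjusted p up to 0.0623). Of the 28 genes called with LPS in each genotype over these and the remaining lists, quantile normalization turned the sign of 0 and ended the call of 2 in ERRα-/- (Vdac3 and Vdac2) and 3 in ERRα+/+ cells (Esrra, Hccs and Vdac2).

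An accessory complex IV subunit outside the rule had a larger LPS difference than any member. AA467197 (Nmes1) encodes a paralogue of NDUFA4, which is known to replace it in complex IV in inflamed cells. AA467197 read 3.21, 7.39 and 7.53 in ERRα-/- LPS, against -0.59, 0.25 and 0.20 in ERRα-/- PBS cells, and 2.57, 6.44 and 6.65 in ERRα+/+ LPS, against -0.14, 0.54 and 0.31 in ERRα+/+ PBS cells. Replicate 1 was the lowest LPS array in each genotype, and no LPS array overlapped with PBS. It rose by 6.09 ± 1.22 in ERRα-/- (adjusted p = 0.00222) and 4.98 ± 1.22 in ERRα+/+ cells (adjusted p = 0.00725). Ndufa4 itself differed by 0.155 in ERRα-/- and 0.0779 in ERRα+/+ cells and was not called.

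Other parts of the pathway were as follows. For comparison, 50.4% of all genes were called with LPS in ERRα-/- cells (25.1% higher and 25.3% lower). In ERRα+/+ cells 45.9% of all genes were called (22.2% higher and 23.7% lower). Of 8 complex II genes, 0 rose and 3 fell with LPS in ERRα-/- cells and 0 rose and 1 fell in ERRα+/+ cells, all of them assembly factors (Sdhaf1 at -1.18, Sdhaf4 at -0.82 and Sdhaf3 at -0.75 in ERRα-/-, and Sdhaf4 at -0.74 in ERRα+/+ cells). The Sdhaf1 call ended without ERRα-/- LPS replicate 2 (adjusted p = 0.0572) or replicate 3 (0.057). Of 10 ERR receptors and coregulators, 4 rose and 0 fell in each genotype, namely Esrra (3.09 in ERRα-/- and 1.62 in ERRα+/+ cells), the coactivator genes Ppargc1b (1.44 in ERRα-/- and 2.23 in ERRα+/+ cells) and Pprc1 (1.16 in ERRα-/- and 1.28 in ERRα+/+ cells), and the GABP subunit gene Gabpb1 (1.02 in ERRα-/- and 0.84 in ERRα+/+ cells). The Esrra rise is measured with a gene targeted in ERRα-/- cells, and in ERRα+/+ cells leaving out any of 5 of the 6 ERRα+/+ arrays ended the call (adjusted p up to 0.0744), as did quantile normalization (adjusted p = 0.0922). Of 9 genes that use cytochrome c outside respiration or move nucleotides and ions across the mitochondrial membranes, 2 rose and 2 fell in each genotype. Casp9, the caspase activated through cytochrome c, fell (-1.42 ± 0.22 in ERRα-/- and -1.85 ± 0.22 in ERRα+/+ cells), as did Ucp2, an inner membrane carrier (-0.81 in ERRα-/- and -0.97 in ERRα+/+ cells). The Ucp2 call in ERRα-/- cells ended without ERRα-/- PBS replicate 1, LPS replicate 2 or LPS replicate 3 (adjusted p up to 0.0723). The outer membrane channel genes Vdac3 (0.84 in ERRα-/- and 1.08 in ERRα+/+ cells) and Vdac2 (0.53 in ERRα-/- and 0.55 in ERRα+/+ cells) rose. The Vdac2 calls ended without any of 4 single arrays in each genotype and under quantile normalization. None of these lists had a gene called for genotype other than Esrra. The subunits encoded by mitochondrial DNA were not analysed here.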

How the data were processed

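Expression was measured on 12 arrays, and the deposited values are the scanner's spot intensity files; per the file headers they were extracted with Agilent Feature Extraction 11.5.1.1, which had already subtracted background from the processed signal. Version 9.3.2.1 stands in the submitters' processing notes. The deposited series table holds linear intensity values that equalled the processed signal at all 62976 spots, and served as an alternative. Spots of a probe were averaged, log2 was taken and each array's 75th percentile subtracted. The probe with the highest mean stood for a gene. Genes were named through RefSeq accessions. limma 3.58.1 (R 4.3.3) fitted 4 group means and 6 contrasts, with Benjamini-Hochberg adjustment over 13113 genes, and was tested on simulated data. The members, gene lists and markers were chosen with earlier results of these data known. Named were all called members, the largest genotype differences per complex and at most 4 called genes per list and contrast. The replicate numbers were taken to pair the samples, which the sources used here do not state. Same-numbered arrays correlated at 0.143 to 0.783 in their deviations from the group means over 18 pairs. Differently numbered arrays of the same slide correlated at 0.129 to 0.553 (median 0.24), against a median of 0.282 for same-numbered arrays of that slide. These correlations do not tell pairing by number apart from a shared slide. The number of arrays limits the precision. Alternatives were quantile and array-median scaling, normexp with offset 50, the deposited table, probe and spot filters, probe means, replicate and slide blocks, slide 2 alone, array weights and leaving out each array.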

Additional observations from a re-analysis of the deposited data

Results flagged for a closer look

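Atp5e, the ε subunit of ATP synthase, differed in direction between the genotypes with the 75th percentile scaling. With LPS its difference was 0.0959 in ERRα-/- cells, with all 3 same-numbered pairs higher, and -0.0968 in ERRα+/+ cells, with all 3 pairs lower. The interaction was 0.193 ± 0.322 (SE, n = 3 arrays per group) and was not called by limma (adjusted p = 1). Under quantile normalization the direction was the same in both genotypes, at -0.40 in ERRα-/- (adjusted p = 0.0437) and -0.52 in ERRα+/+ cells (adjusted p = 0.0151).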

How the results depend on the processing

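Quantile normalization turned the direction of most small LPS differences. Under quantile normalization the members' median was -0.232 in ERRα-/- and -0.182 in ERRα+/+ cells, 14 members were called in ERRα-/- cells (2 higher, 12 lower) and 13 in ERRα+/+ cells (3 higher, 10 lower), and all genes split into 2626 higher and 3943 lower calls in ERRα-/- and 2408 higher and 3718 lower in ERRα+/+ cells (75th percentile: 3295 higher and 3316 lower in ERRα-/-, 2907 higher and 3111 lower in ERRα+/+). Cox5b then reversed to -0.196 in ERRα-/- and -0.131 in ERRα+/+ cells, and Cox7a2 to -0.028 in ERRα-/- cells. Array-median scaling kept the medians above 0 (0.18 in ERRα-/- and 0.212 in ERRα+/+ cells) and called 1 member in ERRα-/- (44.4% of all genes) and 3 in ERRα+/+ cells (40.3%). Without a probe filter 3 were called in each (27.7% of all genes in ERRα-/- and 24.8% in ERRα+/+ cells). The replicate block, whose numbers were taken to pair the samples, called 18 members in each genotype with LPS and changed no genotype count of members. With LPS this block called 63.7% of all genes in ERRα-/- and 60.5% in ERRα+/+ cells. The slide block called 20 in ERRα-/- (65.5% of all genes) and 21 in ERRα+/+ cells (62.7%), and array weights called 32 in ERRα-/- (82.1%) and 22 in ERRα+/+ cells (73.4%). Slide 2 alone called 20 in ERRα-/- (73% of all genes) and 25 in ERRα+/+ cells (71.4%). For the genotype, slide 2 alone called 2 members under LPS (15.9% of all genes) and 2 under PBS (8.98%). It called 2 averaged (19.2%) and 1 for the interaction (3.47%). Array weights called 8 under LPS (30.6% of all genes), 3 under PBS (11.8%), 8 averaged (28.2%) and 2 for the interaction (9.37%). Without single arrays the LPS counts ranged from 2 to 9 in both genotypes and the genotype counts were 0. Without ERRα+/+ PBS replicates 2 and 3 together, chosen after seeing the data, 1 member was called in ERRα+/+ cells. Array weights gave slide 1 the least weight. The cause of these changes was not tested. Of the calls of named members, that of Cycs remained under all 25 alternatives in each genotype. Among these, the deposited table holds the same values as the processed signal, so its fit could not differ from the main one.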
